A study of Mus musculus with 12 samples.

Results

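The cytosolic ribosome of mouse liver was described through 78 genes named for its protein subunits. They were selected on their symbol (Rpl or Rps followed by a number, and Rplp0, Rplp1, and Rplp2, without pseudogenes or S6 kinases) and on a mean level, over all 12 libraries, of 5 RPKM or more. RPKM is a read count divided by the length of the mRNA in kilobases and by the mapped reads of the library. The pattern matched 83 of the 22456 genes measured, and 78 of them met the level, 47 of the large subunit (Rpl) and 31 of the small subunit (Rps). Because the mean level chose the members, levels are given as a description, and tests are given only for differences between groups of mice. Liver RNA came from male BALB/cByJ mice aged 2 to 8 months. Lpin1-/- mice carry fatty liver dystrophy (FLD), a loss of lipin 1 in the whole body, and were compared with Lpin1+/+ littermates (WT) of a colony founded with Lpin1+/- animals. Mice of each genotype were fasted for 16 hours, or fasted for 16 hours and given chow again for 5 hours, which gave 4 groups of 3 mice with 1 library per mouse. The refed livers were therefore taken 5 hours later than the fasted livers, and the effect of food and that of time of day cannot be told apart. In bulk liver, fewer cells of a type and less RNA per cell cannot be told apart either.

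A cytosolic ribosome joins a 60S subunit, which forms peptide bonds, to a 40S subunit, which reads the mRNA, and most of their proteins are present in a single copy. Cells make them in matched amounts, since proteins left unassembled are degraded. Their mRNAs begin with a C followed by an unbroken run of pyrimidines, the terminal oligopyrimidine tract, through which the kinase complex mTORC1 turns their translation up with food and down in fasting, with less change in mRNA level. Ribosome assembly itself takes place mostly in the nucleolus and needs many factors that are not part of the mature ribosome.

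Start sites are shown for a few members named in the results, as examples and not as a representative set. The pyrimidine run that begins with C near the annotated start is in capitals. Other members named in the results, among them Rpl4, Rpl41, Rplp0, and Rpl27, have no such run and are not shown. Sequences are from RefSeq on GRCm38.p6, 5′ to 3′ on the strand of the gene, with the 15 bases before the start site and the 15 bases from it on. Rps6, the substrate of S6 kinase, is at chr4:86857353-86857382 on the minus strand, Rps15a at chr7:118116133-118116162 on the minus strand, Rpl28 at chr7:4792950-4792979 on the plus strand, Rpl27a at chr7:109519180-109519209 on the plus strand, Rpl22l1 at chr3:28805493-28805522 on the plus strand, and Rpl7l1 at chr17:46782642-46782671 on the minus strand.
Rps6: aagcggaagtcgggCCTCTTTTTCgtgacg
Rps15a: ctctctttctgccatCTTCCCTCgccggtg
Rpl28: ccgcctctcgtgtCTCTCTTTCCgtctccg
Rpl27a: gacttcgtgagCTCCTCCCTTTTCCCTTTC
Rpl22l1: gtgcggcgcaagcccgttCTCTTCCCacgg
Rpl7l1: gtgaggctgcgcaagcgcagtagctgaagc
The run of Rpl27a extends beyond the stretch printed, to 20 bases in all, and Rpl7l1 holds no such run near its annotated start. In promoters of 300 bases (250 before the start and 50 after it), a run of at least 5 pyrimidines that starts with C within 10 bases of the start site was found in 38 of 70 member promoters from 59 genes, or 54.3%, and in 30.7% of all 32851 mouse promoters. Runs of at least 8 bases were found in 34.3% of member promoters and 8.11% of all. The motif CCGGAAG, the core of ETS factor sites, was searched on both strands and was present in 35.7% of member promoters and 8.86% of all. Its reverse complement opens with 5 pyrimidines, so both searches can share bases. These are matches of letters, and no measurement of binding or of start sites was made.

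Member levels spanned a wide range. Mean levels over the 12 libraries ran from 7.92 to 2016 RPKM with a median of 182 RPKM, while the median of the 11507 genes that entered the tests (mean 0.5 RPKM or more) was 7.23 RPKM. Members above 1000 RPKM were Rpl41, the smallest ribosomal protein, at 2016 RPKM, Rps29 at 1217 RPKM, and Rplp1, an acidic protein of the stalk that recruits elongation factors, at 1133 RPKM. At the other end, Rps27 (7.92 RPKM), Rpl3 (9.51 RPKM), and Rps2 (10.5 RPKM) were the lowest of 9 members under 20 RPKM. Just inside the threshold of 5 RPKM was Rps27, and just outside it was Rpl29 at 2.34 RPKM. Of the other symbols left out, Rpl39l, Rpl6l, and Rpl3l had means of 0.155, 0.149, and 0.0318 RPKM, and Rpl10l was listed at 0 in every library.

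**Figure D1:**
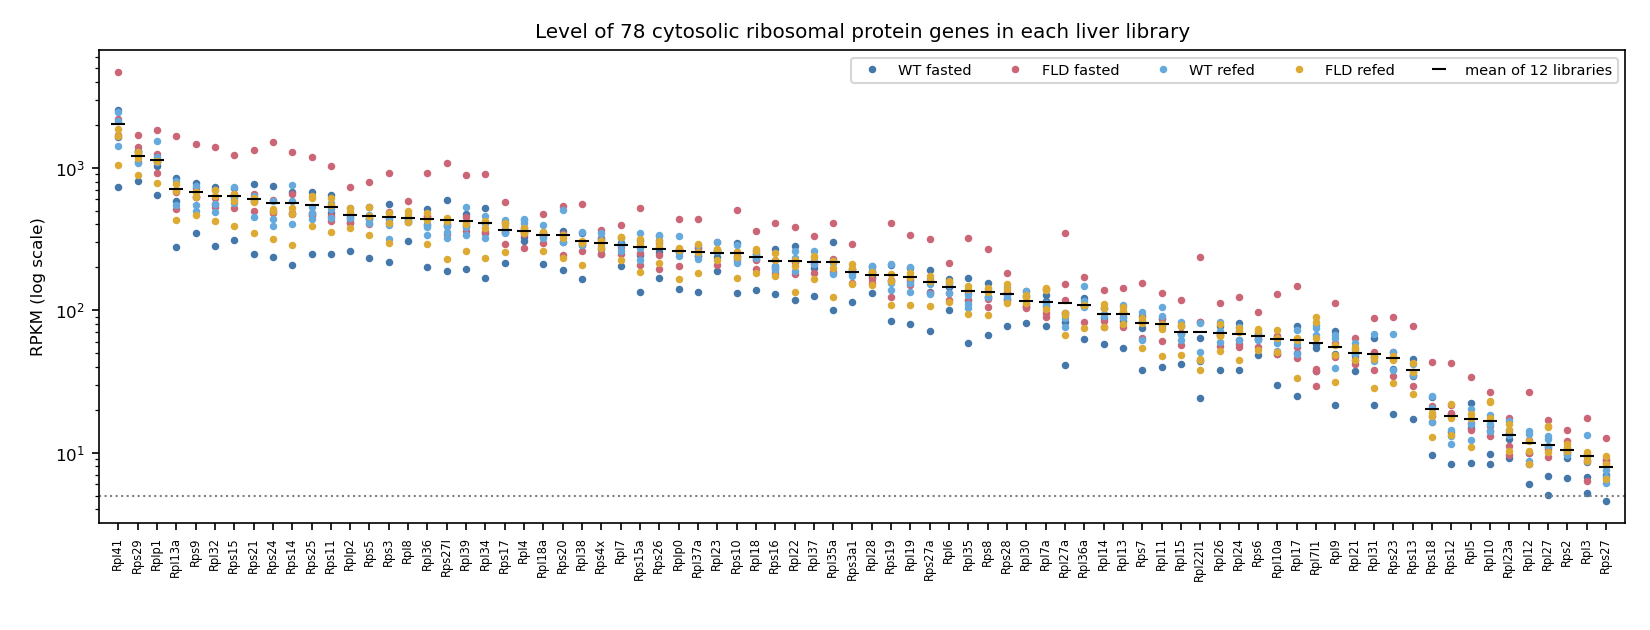
Level of each of the 78 ribosomal protein genes (horizontal axis, ordered by mean) in RPKM on a log axis, with a point for each of 12 libraries coloured by group, a dash for the mean, and a dotted line at 5 RPKM. Means run from 7.92 RPKM for Rps27 to 2016 RPKM for Rpl41.

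The order of levels has to be read with the sequence that the genes share with pseudogenes and other copies. Of all 69-base stretches of a member's annotated protein-coding transcripts (GENCODE M21, the read length being 69 bases), a median of 30.8% also occurred in transcripts of another gene, with a range of 0 to 84.8%, and for 20 of 78 members more than 50% did. Among the 9 members under 20 RPKM the median was 50.8%, among the 18 members from 20 to 100 RPKM it was 44.4%, and among the 51 members from 100 RPKM it was 23.8%. Rpl3 shared 64.8%, Rps2 50.8%, and Rps27 43.2% of their stretches. How the authors' counting treated such reads is not given in the sources used here, so the levels of members with many copies are uncertain, and the part that shared sequence has in the order of levels was not tested.

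The libraries differed in depth by at most 1.34-fold, as read from the steps between low RPKM values. Lpin1 itself had 22.0, 0.726, and 1.76 RPKM in fasted WT and 0.0597, 0.0566, and 0.0368 RPKM in fasted FLD liver, and 2.92, 0.784, and 2.76 RPKM in refed WT and 0.00573, 0.0238, and 0.00962 RPKM in refed FLD liver, so that each FLD mouse was below each WT mouse. All 10 hepatocyte markers were detected, with a summed level of 51641 to 87782 RPKM.

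As a group, the members moved together from mouse to mouse, and this spread was wide within fasted groups. Their summed RPKM was 1.77, 2.96, and 2.58% of all RPKM in the 3 fasted WT livers and 5.16, 2.96, and 2.47% in the fasted FLD livers. In the refed livers it was 2.91, 3.28, and 2.53% in WT and 2.30, 3.06, and 2.85% in FLD. Fasted WT mouse 1 and fasted FLD mouse 1 were thus the lowest and the highest of the 12, and the other 10 lay between 2.30 and 3.28%. Fasted FLD mouse 1 had the highest level of 71 of the 78 members, and fasted WT mouse 1 the lowest of 75. On the log2 scale, the median deviation of a member from its own mean over the 12 libraries was 0.89 in fasted FLD mouse 1 and -0.86 in fasted WT mouse 1. In the remaining libraries it ran from -0.45 in refed FLD mouse 1 to 0.24 in refed WT mouse 2. Both subunits took part, with -0.79 for the large and -0.92 for the small subunit in fasted WT mouse 1, and 0.78 and 1.04 in fasted FLD mouse 1. The ratio of summed Rpl to summed Rps RPKM stayed between 1.14 and 1.26 in every library.

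**Figure D2:**
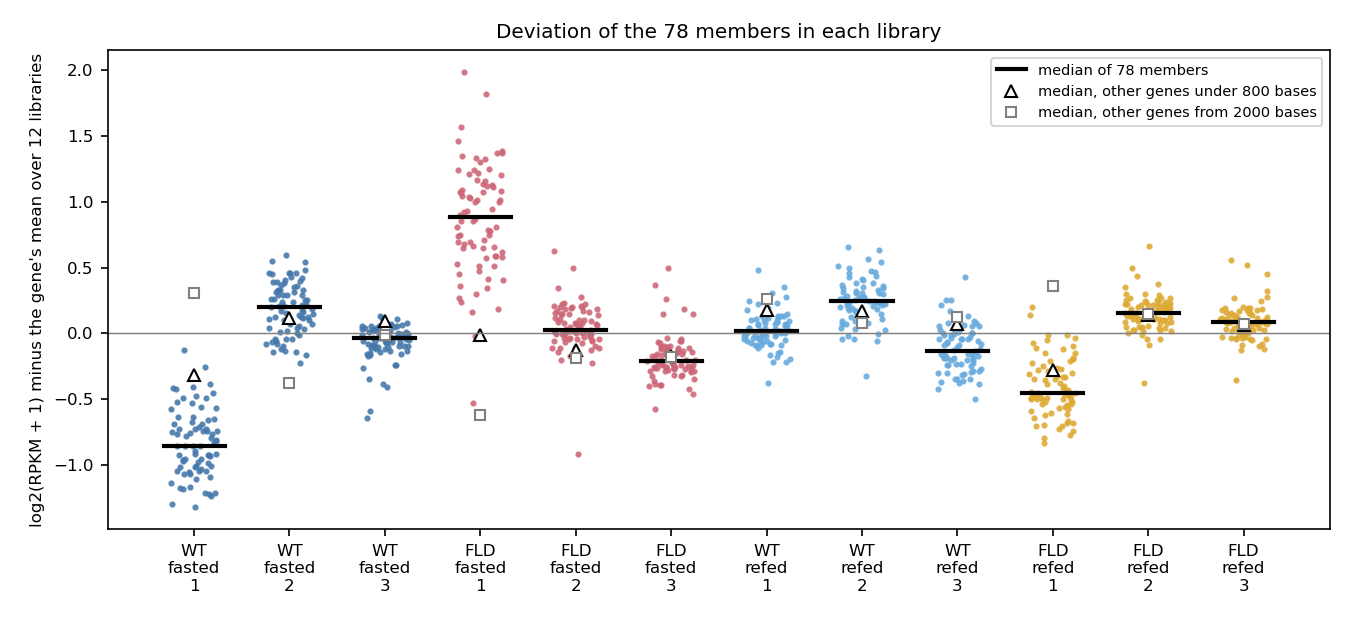
Deviation of each member from its own mean over 12 libraries (log2 of RPKM + 1, vertical axis) for each mouse (horizontal axis, by group), with the median of the members as a bar and the medians of other genes under 800 bases (triangles) and from 2000 bases (squares). The member median is 0.89 in fasted FLD mouse 1 and -0.86 in fasted WT mouse 1, and lies between -0.45 and 0.24 in the other 10 mice.

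Other values moved with these libraries. Members have short mRNAs (median 704 bases), and the difference between 911 other genes under 800 bases and 2746 genes from 2000 bases in the same deviation was -0.62 in fasted WT mouse 1, 0.49 in fasted WT mouse 2, 0.61 in fasted FLD mouse 1, and -0.64 in refed FLD mouse 1, against -0.08 to 0.10 in the other 8 libraries. Compared directly with the short genes, the members lay 0.54 below them in fasted WT mouse 1 (a difference of -0.54) and 0.90 above them in fasted FLD mouse 1. In fasted WT mouse 1 the mitochondrial ribosomal proteins (median -0.59), the respiratory chain (-0.68), and the proteasome (-0.51) were low as well, and in fasted FLD mouse 1 they were at 0.00051, 0.46, and -0.06. Markers of other cells were also high in fasted FLD mouse 1. The 7 cholangiocyte markers summed to 453 RPKM there and to 25.7 to 108 RPKM elsewhere, the 7 erythroid markers to 1942 RPKM against 236 to 903 RPKM, the 10 Kupffer cell markers to 933 RPKM against 107 to 849 RPKM, and the 8 neutrophil markers to 186 RPKM against 4.68 to 166 RPKM. The part of transcript length and of these cells in the member levels was not tested. The median of each comparison with fasted livers, and the main values of its members, are therefore also given without either or both of these mice, an alternative chosen after seeing the data. Both mice were picked on the members' own levels, so leaving both out lowers the fasted FLD over WT estimate of most members by construction. Values and adjusted p from that fit are therefore a description and not a separate test.

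The comparison of refed with fasted WT liver asked how the members follow food in a normal liver. No member passed the threshold (limma, Benjamini-Hochberg adjusted p under 0.05), where 1.72% of all genes did, and 4 members (5.13%) had an unadjusted p under 0.05, against 13.9% of all genes. Point estimates were above 0 for 76 of 78 members, with a median log2 fold change of 0.28 beside 0.19 over all genes tested, and a range of -0.01 to 0.66. The largest were those of Rpl27 (0.66) and Rps23 (0.65), and the smallest those of Rps12 and Rps27l (both -0.01). For 11 members all 3 refed livers were above all 3 fasted livers, as against 18.1% of all genes without overlap in either direction. Among these was the stalk protein gene Rplp1, with 641, 1093, and 1026 RPKM in the fasted and 1200, 1541, and 1098 RPKM in the refed livers (log2 fold change 0.50, SE 0.31, adjusted p = 0.522, and 0.26 without both outlying mice). Without fasted WT mouse 1 the median was -0.04, and 32 of 78 members were higher, so the direction rested on that library. With libraries rescaled by their median ratio, 53 of 78 members were higher, with a median of 0.06 beside 0.02 for all genes.

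The comparison of refed with fasted FLD liver gave 20.7% of all genes past the threshold, and 2 of 78 members, Rpl7l1 higher and Rpl22l1 lower, with 3 (3.85%) at an unadjusted p under 0.05, against 36.1% of all genes. The median log2 fold change was -0.29 beside 0.25 over all genes, and 69 of 78 members had a value below 0. Groups did not overlap for 3 members (1 higher, 2 lower), as against 46.8% of all genes. Without fasted FLD mouse 1 the median became 0.03, with 47 of 78 members higher, so here too the direction of the median rested on a single library. After rescaling by the median ratio, 1 of 78 members was higher, with a median of -0.65 beside -0.03 for all genes, and Rpl22l1 was then the only member past the threshold.

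Rpl7l1, a paralog of the large-subunit gene Rpl7, is encoded at chr17:46773907-46782672 (GRCm38, minus strand) and shares only 3.71% of its 69-base stretches with other genes. It had 38.5, 29.2, and 37.1 RPKM in fasted FLD and 64.3, 89.2, and 82.9 RPKM in refed FLD liver. In WT liver it had 37.5, 57.5, and 54.6 RPKM in the fasted and 78.6, 66.7, and 75.5 RPKM in the refed state. Refed livers were above fasted livers without overlap in both genotypes. The change in FLD liver was 2.21-fold (log2 fold change 1.15, SE 0.21, limma adjusted p = 0.00396), and that in WT liver was 0.57 on the log2 scale (adjusted p = 0.236). The interaction of 0.57 for Rpl7l1 did not pass the threshold. Between genotypes in fasted liver the difference of -0.49 did not pass either. Without both outlying mice it was -0.75 (adjusted p = 0.0351). These mice held the lowest fasted WT and the highest fasted FLD value of Rpl7l1, so leaving them out could only lower the estimate. Leaving out both outlying mice gave a log2 fold change of 1.22 with refeeding in FLD liver (adjusted p = 0.00406) and 0.38 in WT liver (adjusted p = 0.229), whereas rescaling by the median ratio gave 0.79 (adjusted p = 0.0843).

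The comparison of FLD with WT in fasted liver gave 18.8% of all genes past the threshold, and 2 of 78 members, Rpl22l1 and Rpl27a, both higher in FLD, with 9 (11.5%) at an unadjusted p under 0.05, against 33.0% of all genes. The median log2 fold change was 0.47 beside -0.14 over all genes, and 76 members had a value above 0, the exceptions being Rpl7l1 (-0.49, adjusted p = 0.123) and Rpl4 (-0.07). For 5 members, Rpl12, Rpl22l1, Rpl27a, Rps12, and Rps27, all 3 FLD livers were above all 3 WT livers, while 32.9% of all genes had no overlap. Rps12, a protein of the small subunit, had 8.32, 18.8, and 13.9 RPKM in WT and 42.3, 19.0, and 21.7 RPKM in FLD liver (log2 fold change 0.95, SE 0.33, adjusted p = 0.0682), and the difference was 0.31 (adjusted p = 0.428) without both outlying mice. Without fasted WT mouse 1, 70 of 78 members were higher, and without fasted FLD mouse 1, 66 were. After rescaling by the median ratio 77 were higher, and after rescaling on other genes with short transcripts 76 were. Without both outlying mice, 16 of 78 members were higher, and the median was -0.17, so leaving out both mice, but neither alone, turned the direction. Each of these contrasts uses fasted libraries that another contrast also uses, so that the shared libraries enter both.

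Rpl22l1 encodes a paralog of RPL22, which is known to hold down the level of the Rpl22l1 mRNA. The gene is at chr3:28805436-28807424 (GRCm38, plus strand), and 44.6% of its 69-base stretches occur in other genes. It had 24.3, 63.6, and 43.9 RPKM in fasted WT and 235, 83.0, and 83.1 RPKM in fasted FLD liver, and 44.8, 81.1, and 50.6 RPKM in refed WT and 37.8, 44.9, and 45.5 RPKM in refed FLD liver. The 3 fasted FLD livers were the highest of the 12, mouse 1 by far. FLD exceeded WT 2.83-fold in fasted liver (log2 fold change 1.50, SE 0.43, limma adjusted p = 0.0308), and refeeding of FLD mice lowered it by 1.44 on the log2 scale (a change of -1.44, SE 0.43, adjusted p = 0.0340). Without both outlying mice the difference between genotypes was 0.64 (adjusted p = 0.150), which did not pass. The change with refeeding was -0.95 without fasted FLD mouse 1 (adjusted p = 0.116) and, with the same estimate, passed the threshold without both mice (adjusted p = 0.0342). The interaction was -1.91 (adjusted p = 0.137).

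A shift that both genes of a pair share cancels in a ratio within a library, so the paralogs were also set against their partners. This measure was chosen after the values were seen and is therefore given with no test. Rpl22l1 relative to Rpl22 was 0.206, 0.225, and 0.198 in fasted WT and 0.615, 0.378, and 0.462 in fasted FLD liver. In refed liver it was 0.194, 0.311, and 0.271 in WT and 0.280, 0.200, and 0.222 in FLD. Each fasted FLD liver was above the 9 others, including mice 2 and 3. Rpl7l1 relative to Rpl7 was 0.184, 0.197, and 0.185 in fasted WT, 0.0975, 0.105, and 0.151 in fasted FLD, 0.272, 0.208, and 0.288 in refed WT, and 0.284, 0.272, and 0.255 in refed FLD liver. Here the fasted FLD livers were below the 9 others. Rpl7l1 did not share the shift of the members, with 37.5 RPKM in fasted WT mouse 1 and 38.5 RPKM in fasted FLD mouse 1. Rpl7 had 204 and 395 RPKM in these mice, so its shift does not cancel in their ratios. Rps27l, a p53-responsive paralog of Rps27, showed no such separation, with mean ratios to Rps27 of 56.5 ± 14.3, 56.1 ± 25.7, 52.3 ± 1.12, and 44.6 ± 9.46 (SD, n = 3) in fasted WT, fasted FLD, refed WT, and refed FLD liver. These ratios compare levels of different genes in RPKM and carry the uncertainty of shared sequence.

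Rpl27a, of the large subunit, is at chr7:109519147-109522367 (GRCm38, plus strand), with 34.8% of its stretches shared. It had 41.4, 94.9, and 83.0 RPKM in fasted WT and 350, 152, and 118 RPKM in fasted FLD liver, and 88.1, 95.1, and 76.7 RPKM in refed WT and 67.2, 92.3, and 96.3 RPKM in refed FLD liver. As with Rpl22l1, the 3 fasted FLD livers were the highest of the 12. FLD exceeded WT 2.65-fold in fasted liver (log2 fold change 1.41, SE 0.39, limma adjusted p = 0.0282), and the change of FLD liver with refeeding was -1.12 (adjusted p = 0.0627). Without both outlying mice the fasted difference was 0.58 (adjusted p = 0.105). Measured from the median deviation of all members in the same library, Rpl27a lay 0.94, 0.60, and 0.47 above in the fasted FLD livers and between -0.37 and -0.08 in the other 9 libraries, and Rpl22l1 lay 1.10, 0.47, and 0.71 above, against -0.53 to 0.22 elsewhere. Both genes were named for passing the threshold in these same livers, so these values are a description and not a separate test.

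**Figure D3:**
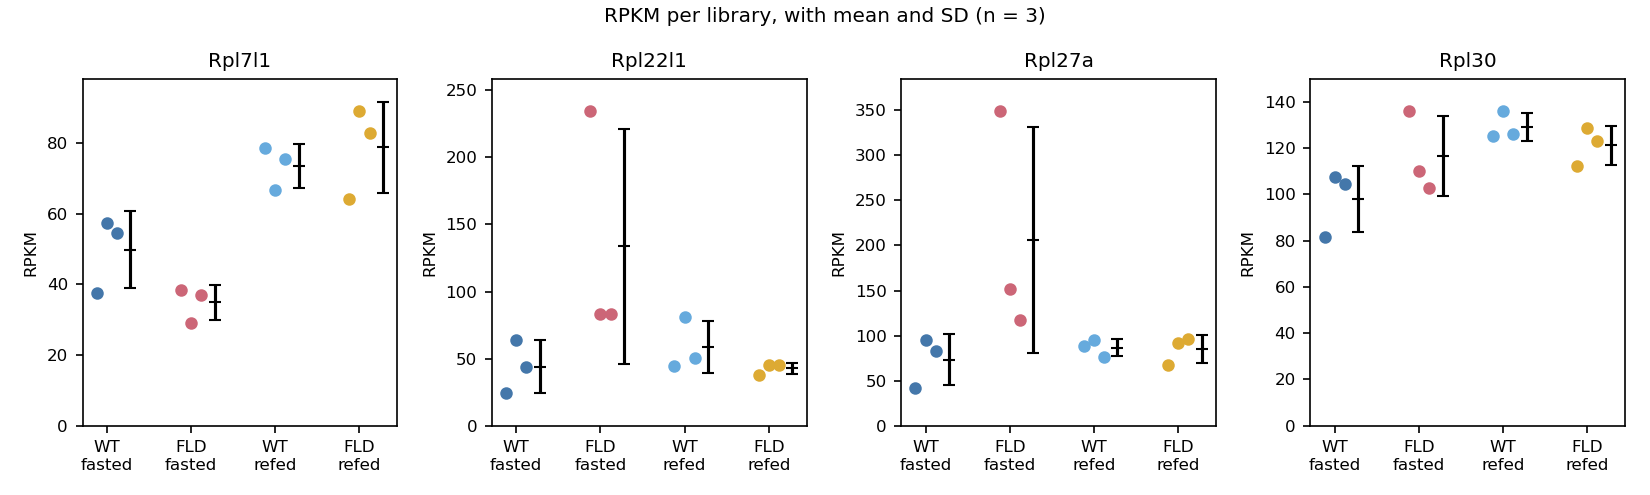
RPKM of the 3 members past the threshold in any comparison, and of Rpl30, in each of 12 mice by group, with the group mean and SD (n = 3). Fasted FLD livers hold the highest Rpl22l1 (83.0 to 235 RPKM) and Rpl27a (118 to 350 RPKM), and refed livers of both genotypes hold more Rpl7l1 than fasted livers.

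The comparison of FLD with WT in refed liver gave 0 members past the threshold in limma and 0 with an unadjusted p under 0.05, where 6.67% of all genes passed and 22.5% had such a p. The median log2 fold change was -0.11 beside -0.07 over all genes, and 17 of 78 members were higher. For 3 members, Rpl28, Rpl4, and Rps26, all 3 FLD livers were below all 3 WT livers, as against 33.9% of all genes without overlap. Rpl28 had 192, 205, and 205 RPKM in WT and 150, 182, and 187 RPKM in FLD liver (log2 fold change -0.22, SE 0.18, adjusted p = 0.522). The largest estimates were those of Rps12 (0.39) and Rpl10 (0.36), and the smallest those of Rpl11 and Rps14 (both -0.45). Rescaling each library on other genes with transcripts under 800 bases, also chosen after seeing the data, gave 51 of 78 higher and a median of 0.05, so no direction was fixed for this comparison.

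The interaction of genotype and feeding, which asks whether the response to food differed between genotypes, was past the threshold for 1.28% of all genes and for 0 members (limma), with 3 (3.85%) at an unadjusted p under 0.05, against 18.1% of all genes. Its median was -0.56 beside 0.09 for all genes. Without fasted WT mouse 1, 3 of 78 members were above 0, and without fasted FLD mouse 1, 8 were. Without both outlying mice the median became 0.051, with 45 of 78 members above 0. The lowest values were those of Rpl22l1 (-1.91) and Rpl27a (-1.44), and the highest those of Rpl7l1 (0.57) and Rpl7a (0.19). The median standard error of a member in the comparisons of 2 groups was 0.336, above the 0.258 of all genes tested.

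**Figure D4:**
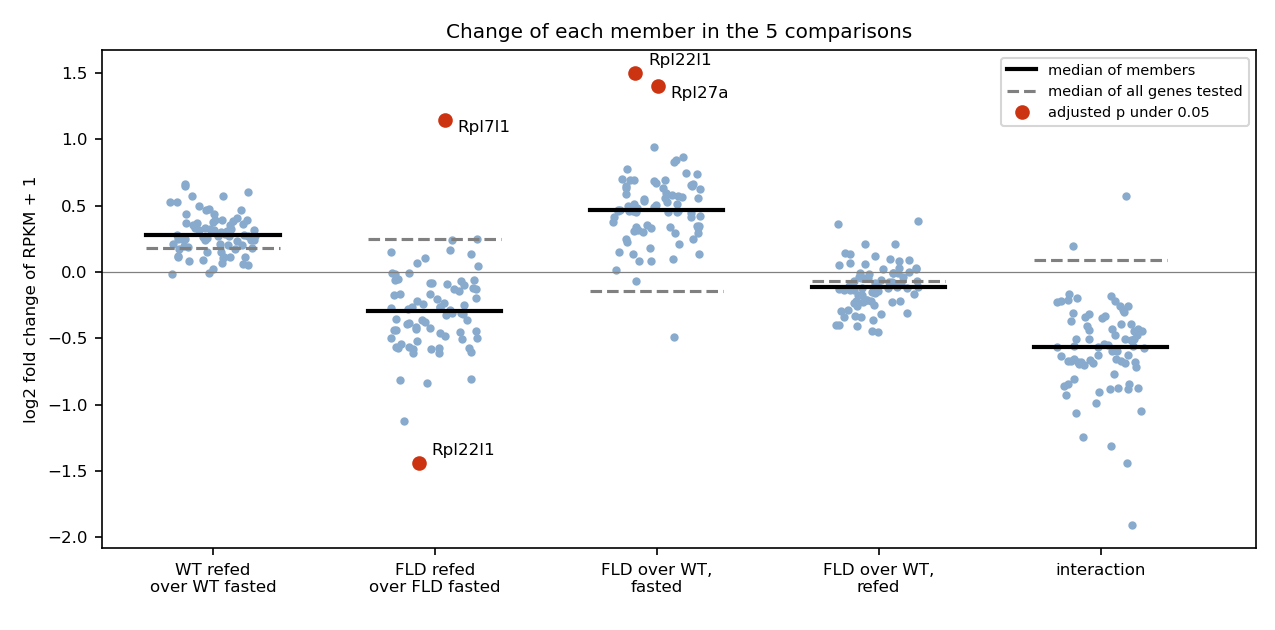
Log2 fold change of each of the 78 members (points) in the 4 comparisons of 2 groups and the interaction, with the median of the members (solid) and of all genes tested (dashed) as lines. The median is 0.28 for WT refeeding, -0.29 for FLD refeeding, 0.47 for FLD over WT fasted, and -0.11 for FLD over WT refed, and the points past the threshold are Rpl7l1, Rpl22l1, and Rpl27a.

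Members with roles beyond a place in the core were read from the same fit, and none of those below passed the threshold. The stalk genes had 141 to 436 RPKM in the fasted livers for Rplp0 and 262 to 729 RPKM for Rplp2. Their log2 fold changes of FLD over WT in fasted liver were 0.42 for Rplp0 (adjusted p = 0.420), 0.51 for Rplp1 (adjusted p = 0.285), and 0.49 for Rplp2 (adjusted p = 0.236). When both outlying mice were left out, they were -0.18 for Rplp0, 0.013 for Rplp1, and 0.0019 for Rplp2, so none kept its size and that of Rplp0 turned its direction. Rps6, whose protein is phosphorylated when mTORC1 is active, had 48.5, 69.5, and 63.0 RPKM in fasted WT, 97.1, 63.4, and 55.2 RPKM in fasted FLD, 62.0, 67.8, and 62.8 RPKM in refed WT, and 52.8, 74.3, and 71.0 RPKM in refed FLD liver. Its groups overlapped in all 4 comparisons, and the protein and its phosphorylation were not measured here. Rps27a, made as a fusion with ubiquitin, had log2 fold changes of 0.28 with refeeding in WT (adjusted p = 0.788) and -0.39 in FLD liver (adjusted p = 0.489), neither past the threshold, and without both outlying mice the values were -0.10 and -0.015. Of 4 ribosome genes whose names fall outside the pattern, Gnb2l1 (the gene of RACK1) had a mean of 508 RPKM, Rpl36al 448 RPKM, Rpsa 409 RPKM, and Fau 48.2 RPKM, and 0 of 4 passed the threshold in any comparison.

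The factors that build and use ribosomes were counted whole, from lists written by hand. In refed against fasted FLD liver, where 20.7% of all genes passed, 21 of 53 genes of 60S maturation rose and 0 fell, 16 of 49 of the small-subunit processome and 40S maturation rose and 1 fell, and 14 of 39 initiation factors rose and 0 fell. Nop2, which methylates 28S rRNA, rose by a log2 fold change of 2.03 (adjusted p = 0.000583) and Nop56, of the box C/D snoRNPs, by 1.60 (adjusted p = 0.000499). Eif2b4 and Eif2b3, subunits of the factor that recharges eIF2 with GTP, rose by 1.59 and 1.14 (adjusted p = 0.000684 and 0.00331). The 78 members in the same comparison had 1 that rose (Rpl7l1) and 1 that fell (Rpl22l1), both paralogs of subunit genes. Without both outlying mice, 19 of 53 genes of 60S maturation rose and 0 fell, 15 of them among the 21, 12 of 49 of 40S maturation rose and 1 fell, 11 of the 12 among the 16, and 12 of 39 initiation factors rose and 0 fell, 10 of them among the 14. In that fit 17.1% of all genes passed in either direction. Of 18 genes of rRNA transcription 3 rose, and of 13 elongation and release factors 1 did (Gspt1, 1.48, adjusted p = 0.00154). Among 31 regulators of mTORC1 and of these mRNAs 4 rose and 3 fell, and Ddit4 and Sesn1, which restrain mTORC1, fell by 3.80 and 3.31 on the log2 scale (adjusted p = 0.0111 and 0.000350). The largest of the 4 rises were those of Larp4b (1.63, limma adjusted p = 0.0406) and Mlst8 (0.83, adjusted p = 0.0120).

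In the other comparisons fewer genes of 60S maturation, 40S maturation, and initiation passed the threshold. For rRNA transcription, elongation and release factors, and mTORC1 regulators this did not hold in fasted liver. There, FLD was higher than WT for 2 of 18 genes of rRNA transcription and lower for 1. Of 13 elongation and release factors 0 were higher and 2 lower. With refeeding of WT mice, where 1.72% of all genes passed, 3 of 53 genes of 60S maturation, 4 of 49 of 40S maturation, and 1 of 39 initiation factors rose and 0 fell, with Ppan (1.06) and Wdr74 (0.92) the largest of the 60S list. These counts were 4, 5, and 1 without both outlying mice, and 1 of the 4 genes of 60S maturation was among the 3. In fasted liver, where 18.8% of all genes passed, FLD exceeded WT for 8 of 53 genes of 60S maturation, among them Nmd3, the export adaptor of the large subunit (1.30), and was lower for 1, Dkc1, the pseudouridine synthase of H/ACA snoRNPs (-0.78). Of the 49 genes of 40S maturation 5 were higher and 2 lower, and of the 39 initiation factors 0 were higher and 2 lower, with Eif4b at -1.48. These shares were not above that of all genes. Without both outlying mice, 7 were higher and 1 lower in 60S maturation and 4 higher and 2 lower in 40S maturation, but 0 initiation factors passed in either direction, and Eif4b was at -0.75 (adjusted p = 0.176). The mTORC1 regulators had 5 higher and 2 lower. The higher genes were led by Ddit4 (5.54, adjusted p = 0.00178) and Sesn1 (2.97, adjusted p = 0.000399), which were 6.91 and 3.37 (adjusted p = 0.00123 for each) without both outlying mice. The 2 lower genes were Pdcd4 (-1.15, limma adjusted p = 0.0110) and Tbc1d7 (-1.14, adjusted p = 0.00703). Without both outlying mice 2 regulators were lower, 1 of them among these 2. In refed liver, where 6.67% of all genes passed, 4 of 53, 2 of 49, and 1 of 39 were higher in FLD and 0 lower. Of the 31 mTORC1 regulators 3 were higher there and 0 lower. The largest of these were Eif4ebp3 (3.27, limma adjusted p = 0.0250) and Rragc (0.87, adjusted p = 0.0351).

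Splicing of the members was read from the authors' counts of reads that include or skip an exon (skipped-exon events). In the table of fasted FLD and WT liver, 426 events of 69 members had at least 10 counts in every library, and their median inclusion was 99.8%, beside 98.7% for all events. FLD and WT differed in 23 member events of 9 genes (limma on the log2 ratio of inclusion to skipping, adjusted over 69644 events), 22 with lower and 1 with higher inclusion in FLD. That is 5.40% of member events, as against 10.8% of all events. In refed liver 2 of 456 member events differed, or 0.439%, as against 1.03% of all events, and both were forms of the same exon of Rpl30. In 17 of the 23 events in fasted liver, all 3 WT livers had 0 skipping counts. Events that are forms of the same exon share their skipping counts, so the 23 are not independent of each other, and the event values are not tied to a numbered mouse.

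Rpl30 codes for a protein of the large subunit that, in yeast, binds its own transcript and blocks its splicing. It is at chr15:34440505-34443640 (GRCm38, minus strand), and the exon in question is the coding exon 3 of 4 at chr15:34441232-34441362, with 131 bases. The junctions are shown because the skipped form changes the reading frame, with the first 15 bases after the end of exon 2 in capitals, from GRCm38 on the strand of the gene.
Rpl30 inclusion: ctgtccagctttgagGAAATCTGAAATAGA
Rpl30 skipping: ctgtccagctttgagGTGATTCTGATATTA
The junction that skips exon 3 joins chr15:34442635-34442780 to chr15:34440510-34440604 and is in 0 of 6 annotated Rpl30 transcripts (GENCODE M21). The open reading frame has 115 codons, of which 55 are complete before the exon, and without the exon a stop follows after 56 codons. The skipped mRNA, and any protein from it, were not measured apart from these reads.

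In fasted liver, skipping of this exon was read 0, 0, and 0 times in WT, with 1310, 1658, and 1595 inclusion counts. In FLD liver it was read 80, 36, and 32 times, with 2020, 1585, and 1489 inclusion counts. All 3 FLD livers thus held the skipped form and no WT liver did. Corrected for the lengths that each form offers to reads, inclusion was 100% in WT and 92.5% ± 2.49 (SD, n = 3) in FLD (log2 ratio change -6.36, adjusted p = 0.00108), where counts of 0 allow 3 skipping counts, a share of up to 0.666, 0.527, and 0.547% in the 3 WT livers. The size of the log2 ratio change depends on the 0.5 added to each count, and was -5.38 with 1 added (limma adjusted p = 0.000316). In refed liver skipping was read 0, 0, and 1 times in WT, with 1571, 2412, and 2240 inclusion counts, and 15, 19, and 34 times in FLD, with 1620, 1988, and 2027. Inclusion was 99.96% ± 0.075 in WT and 96.7% ± 1.16 in FLD (SD, n = 3, limma adjusted p = 0.0136), a call that was lost when any of the 6 libraries was left out (adjusted p from 0.0645 to 0.0906), whereas the call in fasted liver held in each case. These limits cover counting error only. Fasted and refed FLD livers were not tested against each other for this exon. The level of Rpl30 itself was 81.6, 108, and 105 RPKM in fasted WT and 136, 110, and 103 RPKM in fasted FLD liver, groups that overlapped (log2 fold change 0.25, adjusted p = 0.344, and 0.0061 without both outlying mice). Of its exonic bases 20.4% are overlapped by a gene on the other strand.

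**Figure D5:**
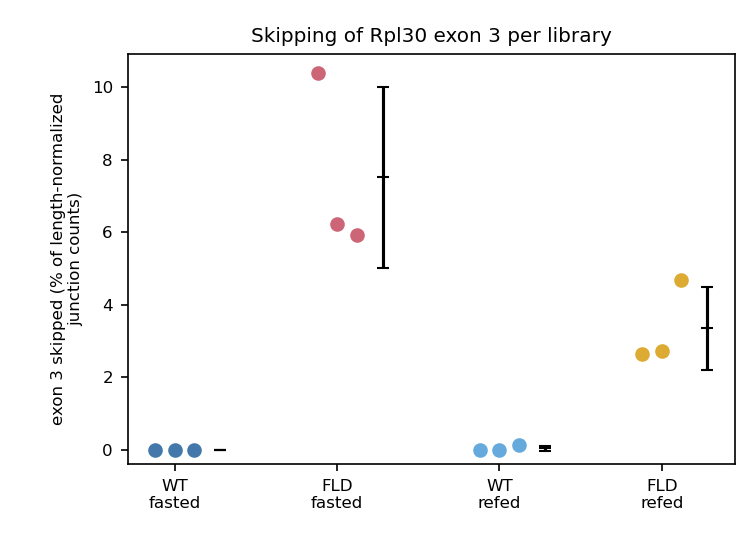
Skipping of Rpl30 exon 3 in percent (length-corrected, vertical axis) for each mouse of the 4 groups, with the group mean and SD (n = 3). WT livers lie at or near 0, and all FLD livers lie above them, with mean inclusion of 92.5% fasted and 96.7% refed.

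The other events were smaller. Rpl6, of the large subunit, had a 49-base exon at chr5:121207147-121207195 with 0, 0, and 0 skipping counts in fasted WT and 90, 15, and 25 in fasted FLD liver, and a mean inclusion of 99.0% in FLD (limma adjusted p = 0.00131). Rpl7a had a 145-base exon at chr2:26911427-26911571 with 0, 0, and 0 against 20, 5, and 7 skipping counts and an inclusion of 99.6% in FLD (adjusted p = 0.00437). Rpl6 shared 59.2% and Rpl7a 78.3% of their 69-base stretches with other genes, so these percentages carry the uncertainty of shared sequence. Rpl27a, which was also higher in level in fasted FLD liver, was the gene of the event with higher inclusion, at chr7:109520162-109520238. Its 77 bases were read as included 1, 0, and 0 times in WT and 48, 11, and 12 times in FLD, against 171, 345, and 289 and 1136, 577, and 442 skipping counts, so that mean inclusion was 0.0912% and 1.36% (adjusted p = 0.0267). These small shares occurred in all 3 FLD livers, and the normal form made up nearly all of the mRNA in each. The remaining genes, named after their values were seen, were Rps15a, Rps4x, Rpl7l1, Rpl10a, and Rpl18.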

How the data were processed

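RNA-Seq of 12 mouse livers (TruSeq stranded kit, paired reads of 69 bases) was processed by the authors, who aligned to GRCm38 (Ensembl 84) with HISAT2 2.0.5, counted with HTSeq 0.6.0, and used DESeq2 1.20.0. Deposited values are RPKM per gene and library, and rMATS counts of inclusion and skipping per event. The authors' own p-values and fold changes were not used. The strand setting of the counting is not given in the sources used here.

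Groups followed the labels, and replicates were separate mice. The 11507 genes of mean 0.5 RPKM or more were compared as log2(RPKM + 1), which understates changes of low genes, in a limma fit (3.58.1, R 4.3.3) of 4 groups with a trend in the variance, with Benjamini-Hochberg adjustment over all genes and a threshold of 0.05. Events with at least 10 counts in each of 6 libraries were fitted in limma for FLD and WT of 1 feeding state, without a trend in the variance. The fit used the log2 ratio of length-normalized counts with 0.5 added, with Benjamini-Hochberg adjustment over all events. Event tables list the libraries of a group without replicate numbers. With 3 mice against 3, an exact permutation test cannot go below 0.1. Absolute depth is not stated per library, and relative depths were read from the steps of low RPKM values. The methods were tested on simulated data, drawn without shifts shared by the genes of a library. The simulated events were centred on lower inclusion than that of the member events. That test therefore does not cover these features of the data. Tables were read with Python 3.11.15, numpy 2.4.6, and pandas 2.3.3, and figures drawn with matplotlib 3.10.9. Promoters are from RefSeq (GRCm38.p6), and transcripts from GENCODE M21.

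The members, gene lists, and tests were chosen with earlier results of these data known. Named members are those past a threshold, the 3 highest and 3 lowest in level, the 2 largest and 2 smallest changes of each contrast, paralogs, and genes with special roles, of which 1 is not reported here. Events named are those with the smallest adjusted p, at most 6, except where stated. Of each list at most the 2 largest changes of a direction are named. Alternatives were another pseudocount (0.1 RPKM), other filters, other scalings, the replicate number as a block, a fit of only the compared groups, and leaving out each library.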

Additional observations from a re-analysis of the deposited data

How the results depend on the processing

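Relative depth differed by at most 1.34-fold between libraries, and the absolute depth is unknown. The number of members past the threshold in refed against fasted FLD liver was 2, and 1 with no filter on mean RPKM, after rescaling by the median ratio, or with the replicate number as a block (1 to 3 with a library left out). In FLD against WT fasted liver it was 2, and 0 with no filter, with the block, or with only the libraries compared, 1 without both fasted mice of number 1, and 4 after rescaling on short genes (0 to 5 with a library left out). Whether equal numbers pair the mice was not settled. Correlations of the 18 same-numbered pairs ran from -0.47 to 0.74, 8 of them above 0.1. Their median was 0.034, beside -0.049 for pairs with other numbers. Under the block, Rpl22l1 and Rpl27a in fasted liver had adjusted p of 0.0528 and 0.0522 (limma). With single libraries left out, both calls in fasted liver were lost without WT mouse 1 (log2 fold change 1.14 for Rpl22l1 and 1.05 for Rpl27a), WT mouse 3 (1.55 and 1.54), or FLD mouse 1 (1.01 and 0.95), while 5 members passed without WT mouse 2. The call of Rpl22l1 with FLD refeeding was lost without fasted WT mouse 3 (-1.44), fasted FLD mouse 1 (-0.95), or refed FLD mouse 1, 2, or 3 (-1.36, -1.48, and -1.49). Without both fasted mice of number 1, an alternative that like the rescaling on short genes was chosen after seeing the data, the median log2 fold change of FLD over WT fasted went from 0.47 to -0.17 and that of the interaction from -0.56 to 0.051. With a library left out, the medians ran from -0.04 to 0.50 (WT refeeding), -0.54 to 0.03 (FLD refeeding), 0.15 to 0.73 (fasted), -0.21 to 0.08 (refed), and -0.83 to -0.24 (interaction).

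Member events past the threshold numbered 13 to 27 in fasted liver with a library left out. In refed liver there were 2, then 4 with 1 added to each count, and 0 with each library left out in turn. Directions reversed for changes near 0. For Rps12 with WT refeeding the values ran from -0.31 to 0.24 with a library left out, for Rps27l from -0.47 to 0.36, and were 0.0021 with RPKM rescaled to an equal sum, for Rpl7a with FLD refeeding -0.11 after rescaling by the median ratio, and for Rpl4 in fasted liver 0.14 after that rescaling and -0.14 to 0.048 with a library left out. Rpl7l1 in fasted liver passed without WT mouse 1 (-0.68, adjusted p = 0.0368). The cause of these changes was not tested.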
